A study of Mus musculus with 2 samples.

Results

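Zp3-low RNA-rich oocytes were oocytes that held much RNA but little of the transcript of Zp3, which encodes a glycoprotein of the zona pellucida. They were found in single-cell RNA sequencing of ovaries taken whole from CD1 mice on postnatal day 2, a study in which the data served to learn which ovarian cell types express the genes of long-lived proteins. There was 1 group of animals, untreated and unmodified as far as the labels say, and 2 libraries, each of the pooled ovaries of 3 pups of 1 female. Replicates are libraries (n = 2), never single cells. A cell was kept if it had 500 genes or more and no more than 10% of its counts from mitochondrial genes. Oocytes were chosen by at least 3 of the 7 transcripts Ddx4, Dazl, Figla, Ooep, Sohlh1, Padi6 and Sycp3, a summed share of these of at least 0.1% of the unique molecular identifiers (UMIs, 1 per captured molecule) and at least 10000 UMIs, and the members were those with Zp3 below 0.05% of their UMIs. This selected 299 of 703 RNA-rich oocytes and of 8202 kept cells, 62 in replicate 1 and 237 in replicate 2. The other 404 RNA-rich oocytes, 166 and 238, are called Zp3-high. Replicate 1 held 54471790 UMIs in 4094 cells and replicate 2 held 59074480 UMIs in 4847 cells. The libraries shared 21 cell barcodes, no member of one had its barcode among the members of the other, and 0 members of replicate 1 and 3 of replicate 2 had theirs among all cells of the other library.

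In the mouse, germ cells divide in the fetal ovary as cysts, in which sister cells stay joined by bridges, and then enter meiosis. They pair and recombine their chromosomes during prophase and come to rest at its end, around birth, as the cysts break up and each oocyte is enclosed in a primordial follicle. Transcription factors such as FIGLA and NOBOX then switch on the genes of the zona pellucida, of growth factors and of the maternal store of the egg. The comparison asked whether Zp3-low oocytes carried more RNA of earlier meiotic or cyst-stage genes.

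The promoters of 4 genes on which the results turn are shown here, Tex101 and Sycp1, whose RNA was more abundant in the members of each library, and Zar1 and Oosp2, whose RNA was less abundant. They are the 250 bases before the start of the RefSeq transcript (GRCm38.p6), written 5′ to 3′ on the strand of the gene. Gene spans in this text are GENCODE's, which reach past the RefSeq start for Tex101 and Zar1, so the Tex101 window lies inside its span and the Zar1 window partly inside. Capitals mark CANNTG, the E-box to which basic helix-loop-helix factors such as FIGLA and SOHLH1 bind, which reads the same on both strands. Tex101 lies at chr7:24672051-24672300, Sycp1 at chr3:102936101-102936350, Zar1 at chr5:72581085-72581334 and Oosp2 at chr19:11660560-11660809, all on the minus strand.
Tex101: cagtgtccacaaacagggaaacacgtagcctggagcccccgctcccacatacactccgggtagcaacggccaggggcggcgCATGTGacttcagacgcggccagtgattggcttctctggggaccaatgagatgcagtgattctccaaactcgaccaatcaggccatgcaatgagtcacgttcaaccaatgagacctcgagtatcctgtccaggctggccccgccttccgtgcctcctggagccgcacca
Sycp1: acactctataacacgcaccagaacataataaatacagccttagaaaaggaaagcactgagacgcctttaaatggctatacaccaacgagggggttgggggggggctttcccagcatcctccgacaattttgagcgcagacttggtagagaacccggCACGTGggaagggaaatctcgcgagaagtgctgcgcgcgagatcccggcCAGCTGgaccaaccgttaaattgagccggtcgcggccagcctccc
Zar1: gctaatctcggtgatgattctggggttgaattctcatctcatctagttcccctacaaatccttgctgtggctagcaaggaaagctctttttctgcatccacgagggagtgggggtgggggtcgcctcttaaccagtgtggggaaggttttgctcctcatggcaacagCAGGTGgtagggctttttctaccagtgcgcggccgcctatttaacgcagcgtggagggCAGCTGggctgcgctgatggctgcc
Oosp2: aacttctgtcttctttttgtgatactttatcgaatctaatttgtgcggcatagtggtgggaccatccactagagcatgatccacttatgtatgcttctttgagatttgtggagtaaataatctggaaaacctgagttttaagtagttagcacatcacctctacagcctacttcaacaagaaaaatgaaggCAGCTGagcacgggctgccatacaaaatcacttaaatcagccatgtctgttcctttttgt
Tex101 and Oosp2 held 1 such hexamer and Sycp1 and Zar1 held 2. Of 27025 promoters of this length, 66% held at least 1, and of the 48 promoters found for the genes called lower in the members, 33 did (68.8%). TAATTG, a sequence bound by NOBOX, was searched on both strands and was in 7.34% of all promoters and in 1 of the 48. These matches describe the letters only.

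The label was checked on germ cell genes that had not chosen the cells. Nobox, a transcription factor of oocytes, was at 451 and 479 CPM in the members (counts per 1000000 UMIs, in the summed UMIs of the members of replicates 1 and 2) and at 3.44 and 4.64 CPM in RNA-rich cells outside the oocyte rule (1265 and 821 cells). Lhx8, another, was at 285 and 287 CPM against 0.813 and 2.39 CPM. The cells outside the rule had failed the oocyte markers, so a difference was likely from the start, and sums do not describe each member. The 4 genes named with the label were part of the rule, so their levels are a description. Ddx4, an RNA helicase of the germ line, was at 68.6 and 54.6 CPM in the members against 60.2 and 53.4 CPM in Zp3-high oocytes. Dazl, an RNA-binding protein of germ cells, was at 353 and 393 CPM against 283 and 311 CPM. Sycp3, of the chromosome axis, was at 1687 and 1425 CPM against 1786 and 1302 CPM. Sohlh1, a transcription factor of early oocytes, was at 735 and 686 CPM against 740 and 676 CPM. These 4 were in a like range in both groups of oocytes. Of the other markers of the rule, Figla was at 1141 and 1077 CPM in the members and 1124 and 995 CPM in Zp3-high oocytes. Ooep and Padi6, of the maternal store, were at 1288 and 2102 CPM and at 660 and 846 CPM in the members, against 3153 and 4310 CPM and 1784 and 1707 CPM.

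Members made up 27.2% of the RNA-rich oocytes in replicate 1 (62 of 228, exact 95% binomial interval 21.5% to 33.5%) and 49.9% in replicate 2 (237 of 475, 45.3% to 54.5%). The intervals cover counting error only, and with 1 library each the difference between the libraries was not tested. Zp3 formed no gap at the threshold. The 5 members nearest below it had Zp3 shares of 0.0469% to 0.0497% in replicate 1 and of 0.0494% to 0.0498% in replicate 2, and the 5 oocytes nearest above it had 0.0505% to 0.0543% and 0.0504% to 0.0529%. In replicate 2, 15 oocytes lay between 0.04% and 0.05% and 34 between 0.05% and 0.06%, and in replicate 1 there were 13 and 12. The median Zp3 share of the members was 0.022% in replicate 1 and 0.014% in replicate 2, and 6 and 37 of them had no Zp3 UMI.

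Members held fewer UMIs than Zp3-high oocytes. Their lowest, median and highest UMIs were 10162, 59088 and 97254 in replicate 1 and 11310, 52895 and 97143 in replicate 2. In Zp3-high oocytes the medians were 86100.5 and 69183, and the highest were 126837 and 115634. The ranges overlapped over most of their length in both libraries. Median genes per cell were 7601.5 and 7139 in members against 8480 and 7874. The oocyte markers of the rule had median shares of 0.574% and 0.629% of UMIs in members and 0.814% and 0.860% in Zp3-high oocytes. That share was at least 0.5% in 44 of 62 and 170 of 237 members, against 161 of 166 and 231 of 238 Zp3-high oocytes. Mitochondrial counts had medians of 3.10% and 3.20% in members and 2.32% and 2.45% in Zp3-high oocytes, and 1 and 7 members and 1 and 15 Zp3-high oocytes had under 0.1%. Fewer transcripts per cell and fewer captured transcripts cannot be told apart here.

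**Figure D1:**
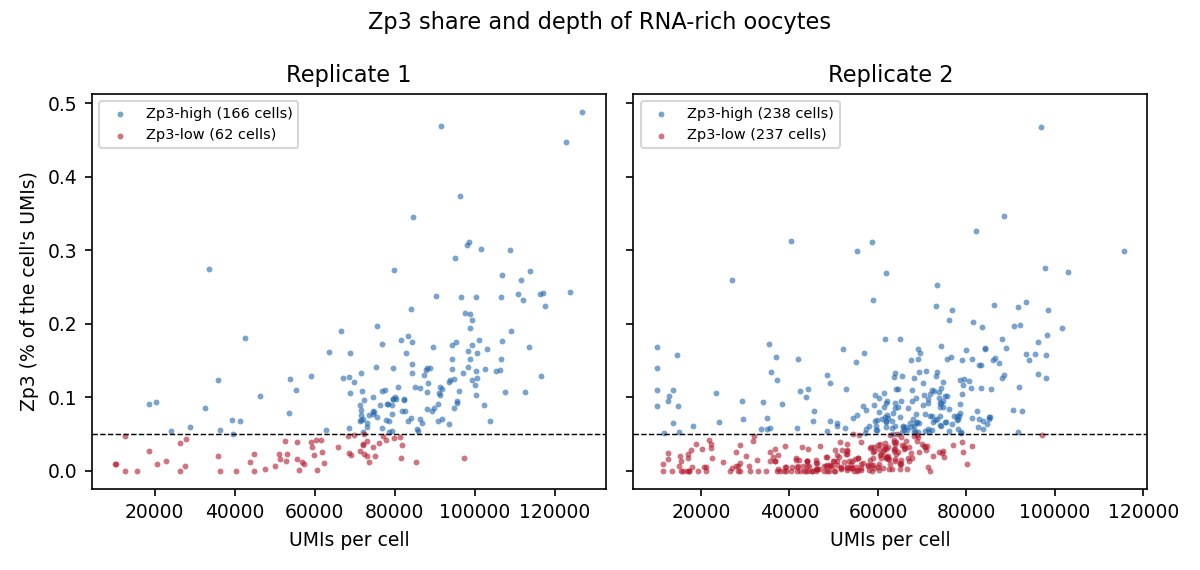
Zp3 as a percent of each cell's UMIs against the UMIs of the cell, 1 panel per library and 1 point per RNA-rich oocyte, with members in red, Zp3-high oocytes in blue and the threshold of 0.05% as a dashed line. The members and Zp3-high oocytes adjoin at the line without a gap, and most members lie toward lower UMIs.

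To compare the RNA of the members with that of Zp3-high oocytes, UMIs were summed per library and group and tested with edgeR's quasi-likelihood test, in which a gene was called at a Benjamini-Hochberg adjusted p under 0.05 and a fold change over 2. Since the oocytes were split on Zp3, any gene that varies with Zp3 from cell to cell can differ between the groups, and the test asks only whether the difference recurred in both libraries. Of 13421 genes tested, 3 were called higher (0.0224%) and 61 lower (0.455%) in the members. Both groups of a library come from the same pups and the same droplet run. With the library as a block, 194 genes were called higher (1.45%) and 523 lower (3.9%), including all 3 and all 61. At any fold, 13% of all genes had an adjusted p under 0.05 in the higher and 16.3% in the lower direction with the block, against 0.0447% and 0.522% with no block, so a low adjusted p with the block was common. Without the oocytes rich in somatic markers described at the end, 17 were called higher and 165 lower with no block. Without likely doublets 1 was called higher and 23 lower, and Zar1, Oosp2, Astl, Gdf9, Nlrp14 and Dppa5a, described next, passed to adjusted p of 0.0542 to 0.0594 at log2 fold changes of -3.93 to -1.13. With oocyte markers of at least 0.5% of UMIs 28 were called lower, and Miox, Npm2, Astl, Gdf9, Nlrp14 and Dppa5a passed to 0.0508 to 0.0664 at log2 fold changes of -3.37 to -1.03.

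Some genes of the zona pellucida and of growth factors fell in the members. Of 10 listed genes, Zp3 chose the cells and 9 were tested, and all 9 had a negative log2 fold change, with a median of -1.23 against 0.002 over all genes tested. With no block 3 were called lower, beside 0.455% of all genes, and with the block 5, beside 3.9%. None was called higher in either fit. Zp1 (chr19:10914287-10920632), which crosslinks the zona filaments, was at 82.4 and 83.8 CPM in the members and at 373 and 372 CPM in Zp3-high oocytes. The groups did not overlap, and Zp1 was 4.48-fold lower in the members by mean CPM (log2 fold change -2.21, SE 0.081, adjusted p = 0.00638). Zp2, another zona glycoprotein, was at 299 and 479 CPM against 895 and 1147 CPM (log2 fold change -1.43, SE 0.259, adjusted p = 0.0849, and 1.51e-14 with the block). Astl, the protease that cleaves ZP2 after fertilization, was at 19.6 and 27.5 CPM against 73.7 and 70.8 CPM and was called lower (log2 fold change -1.61, adjusted p = 0.04). Gdf9, a growth factor from the oocyte to its granulosa cells, was at 198 and 248 CPM against 478 and 475 CPM and was also called lower (log2 fold change -1.13, adjusted p = 0.0436). Oosp1, an oocyte-secreted protein, had 1 and 0 UMIs in the members and 89 and 94 UMIs in Zp3-high oocytes (adjusted p = 0.0554, and 1.86e-07 with the block). Not every gene of the list passed. Bmp15, the growth factor related to Gdf9, had a log2 fold change of -0.64 (adjusted p = 0.186, and 0.0158 with the block). Gja4, the connexin of the oocyte's gap junctions, was at 216 and 209 CPM against 225 and 200 CPM (log2 fold change -0.04, SE 0.084), and Kit, the receptor through which granulosa cells signal to the oocyte, was at 177 and 135 CPM against 229 and 155 CPM (adjusted p = 0.41, and 0.000281 with the block at a log2 fold change of -0.32). Thinned to 10000 UMIs per cell, the log2 fold change of Kit was -0.17.

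A part of the maternal store fell as well. Of 18 maternal-effect genes, 2 chose the oocytes and 15 passed the filter on low counts, all 15 with a negative log2 fold change (median -1.09). With no block 5 were called lower, beside 0.455% of all genes, and none higher. With the block 7 were called lower, beside 3.9% of all genes, the 2 others being Dnmt1, the maintenance DNA methyltransferase, and Oas1d. Zar1 (chr5:72576806-72581254), an RNA-binding protein needed at the start of embryo development, was at 7.33 and 20.9 CPM in the members and at 199 and 257 CPM in Zp3-high oocytes (log2 fold change -3.90, SE 0.427, adjusted p = 0.04). Npm2 (chr14:70647302-70659244), the histone chaperone nucleoplasmin, was at 66.6 and 83.8 CPM against 485 and 502 CPM (log2 fold change -2.74, SE 0.14, adjusted p = 0.012). Both genes were separated between the groups by more than the spread of the libraries. Khdc3, of the subcortical maternal complex, was at 64.5 and 51.4 CPM against 248 and 207 CPM. H1foo, the linker histone of oocytes, was at 78.6 and 73.1 CPM against 267 and 203 CPM. Nlrp14, of the same gene family as Nlrp5, was at 108 and 154 CPM against 458 and 409 CPM. These 3 were called lower, with log2 fold changes of -2.03, -1.68 and -1.75. Other members of the same store differed less. Dppa3, which protects the maternal genome's DNA methylation, was the most abundant of the list at 4295 and 4517 CPM against 5451 and 5373 CPM (log2 fold change -0.34, adjusted p = 0.0881, and 5.35e-08 with the block), and Nlrp5, also of the subcortical maternal complex, was at 949 and 1171 CPM against 1338 and 1478 CPM (log2 fold change -0.45, adjusted p = 0.165, and 2.09e-08 with the block). Uhrf1, which maintains DNA methylation, was at 120 and 127 CPM against 240 and 231 CPM (adjusted p = 0.0297 at a log2 fold change of -0.97, short of a 2-fold change).

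Of the 10 genes called lower with the largest fold changes and at least 20 CPM in Zp3-high oocytes, Zar1 and Npm2 belong to the maternal store. Eif4e1b, an oocyte form of the cap-binding protein eIF4E, was at 1.47 and 2.89 CPM in the members against 26 and 36.2 CPM (log2 fold change -3.69, SE 0.333). Slc23a3, of a transporter family, was at 1.76 and 2.29 CPM against 31.8 and 27.8 CPM (log2 fold change -3.83, SE 0.204). Oosp2, a secreted protein of oocytes, was at 1.76 and 3.74 CPM against 34.2 and 24.9 CPM (log2 fold change -3.27, SE 0.327). Miox, myo-inositol oxygenase, was at 6.45 and 8.67 CPM against 73.3 and 76.9 CPM (log2 fold change -3.29, SE 0.169). All 10 genes were picked as called with the largest fold changes, so their lower values in the members of both libraries were part of the choice. Sult5a1, Tubg2, which encodes a gamma-tubulin, Gstt2 and Glrx, both of glutathione chemistry, had log2 fold changes of -3.02, -2.94, -2.25 and -2.22. The adjusted p of these 8 genes lay between 0.012 and 0.0397.

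Genes of pluripotency and of oogonia, which would mark a stage before meiosis, were not higher in the members. Of 13 listed genes, 9 were tested, with a median log2 fold change of -0.84. With no block 2 were called lower, beside 0.455% of all genes, and none higher. Pou5f1 (OCT4), which germ cells express before meiosis and oocytes express again as they grow, was at 131 and 130 CPM against 296 and 300 CPM (log2 fold change -1.24, SE 0.079, adjusted p = 0.0124). Dppa5a, a KH-domain gene of pluripotent cells, was at 354 and 490 CPM against 1224 and 1434 CPM (log2 fold change -1.69, adjusted p = 0.041). Nanog had 0 and 1 UMIs in the members and 0 and 0 in Zp3-high oocytes, Sox2 had 0 and 1 against 0 and 3, and Prdm14 had 0 in all 4. Zfp42 (REX1) stood against the median, at 37.2 and 27.5 CPM against 24.2 and 22.4 CPM (log2 fold change 0.41, adjusted p = 0.262, and 0.0223 with the block).

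Some genes that start meiosis were at the edge of detection in both groups. Stra8, the retinoic acid target needed to enter meiosis, had 1 UMI in the 62 members of replicate 1 and 1 UMI in the 237 members of replicate 2, against 1 and 0 UMIs in Zp3-high oocytes. Meioc, which keeps meiotic transcripts stable, had 2 and 4 UMIs, and Rec8, the meiotic cohesin, had 1 and 11. Gm4969, which encodes MEIOSIN, the partner of STRA8, had 5 and 18 UMIs against 26 and 21 (log2 fold change -0.12, adjusted p = 0.919). The 4 of 8 meiotic entry genes that passed the filter had a median log2 fold change of -0.01 and none was called in either fit. All 8 summed to 25.2 and 25.2 CPM in the members, most of it in genes not named here. The sums were 24.3 and 21.7 CPM in Zp3-high oocytes and 22.8 and 20 CPM in RNA-rich cells outside the oocyte rule. Members were not counted cell by cell for these genes, so whether a group of them held a meiotic entry program was not tested.

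Prophase genes differed gene by gene. Over 30 tested recombination genes the median log2 fold change was 0.025, with 15 positive and 15 negative and none called. With the block, 1 was called higher, beside 1.45% of all genes. At any fold in that fit, 5 of 30 had an adjusted p under 0.05 in the higher direction and 3 in the lower. Of all genes it was 13% and 16.3%. Meiob, which binds single-stranded DNA at meiotic breaks, was the one called with the block, at 20.8 and 9.61 CPM in the members against 5.94 and 4.88 CPM (log2 fold change 1.38, SE 0.388, adjusted p = 0.154, and 5.86e-05 with the block). Hormad1, which marks unpaired chromosome axes, was at 69.8 and 14.5 CPM against 32.7 and 7.67 CPM (log2 fold change 0.94, SE 0.901, adjusted p = 0.609, and 3.7e-06 with the block). Hormad1 differed more between the libraries than between the groups, and it was higher in the members of each library. Of crossover genes, Ccnb1ip1 (HEI10) was at 41.9 and 28.6 CPM against 24.2 and 20.7 CPM, and Tex11, on the X chromosome, at 50.4 and 45.1 CPM against 34.8 and 33.2 CPM, with adjusted p of 0.00142 and 0.00296 with the block and of 0.202 and 0.13 without. For Dmc1 and Spo11 the difference was within its standard error. Dmc1, the recombinase of early prophase, was at 2.35 and 2.21 CPM against 1.93 and 1.52 CPM (log2 fold change 0.35, SE 0.402). Spo11, which makes the breaks, had 4 and 12 UMIs against 12 and 17 (log2 fold change 0.10, SE 0.512). Mnd1, a cofactor of DMC1, was lower in the members of each library, at 223 and 209 CPM against 241 and 261 CPM (log2 fold change -0.26, adjusted p = 0.197, and 0.00076 with the block).

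The synaptonemal complex is the protein ladder between paired chromosomes. The 13 tested genes of the complex and of meiotic cohesin had a median log2 fold change of -0.04, 6 positive and 7 negative, with none called. With the block 1 was called lower, beside 3.9% of all genes. At any fold in that fit, 5 of 13 had an adjusted p under 0.05 in the higher direction and 3 in the lower, beside 13% and 16.3% of all genes. Sycp1, the transverse filament, was at 364 and 203 CPM in the members against 186 and 135 CPM (log2 fold change 0.77, SE 0.285, adjusted p = 0.222, and 3.25e-08 with the block). The lowest library of the members was above the highest of the Zp3-high oocytes. Syce1 and Syce3, of its central element, were at 273 and 248 CPM against 224 and 206 CPM and at 71 and 46.2 CPM against 52.2 and 37.5 CPM, with adjusted p of 0.00149 and 0.0134 with the block and of 0.215 and 0.513 without. The cohesin Smc1b went the other way, at 426 and 510 CPM against 524 and 603 CPM (log2 fold change -0.31, adjusted p = 0.28, and 9.68e-06 with the block). Ccdc155 (KASH5), which ties telomeres to the cytoskeleton, was at 8.5 and 7.57 CPM against 14.4 and 16.3 CPM and was called lower with the block (adjusted p = 6.24e-05, and 0.0872 without).

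**Figure D2:**
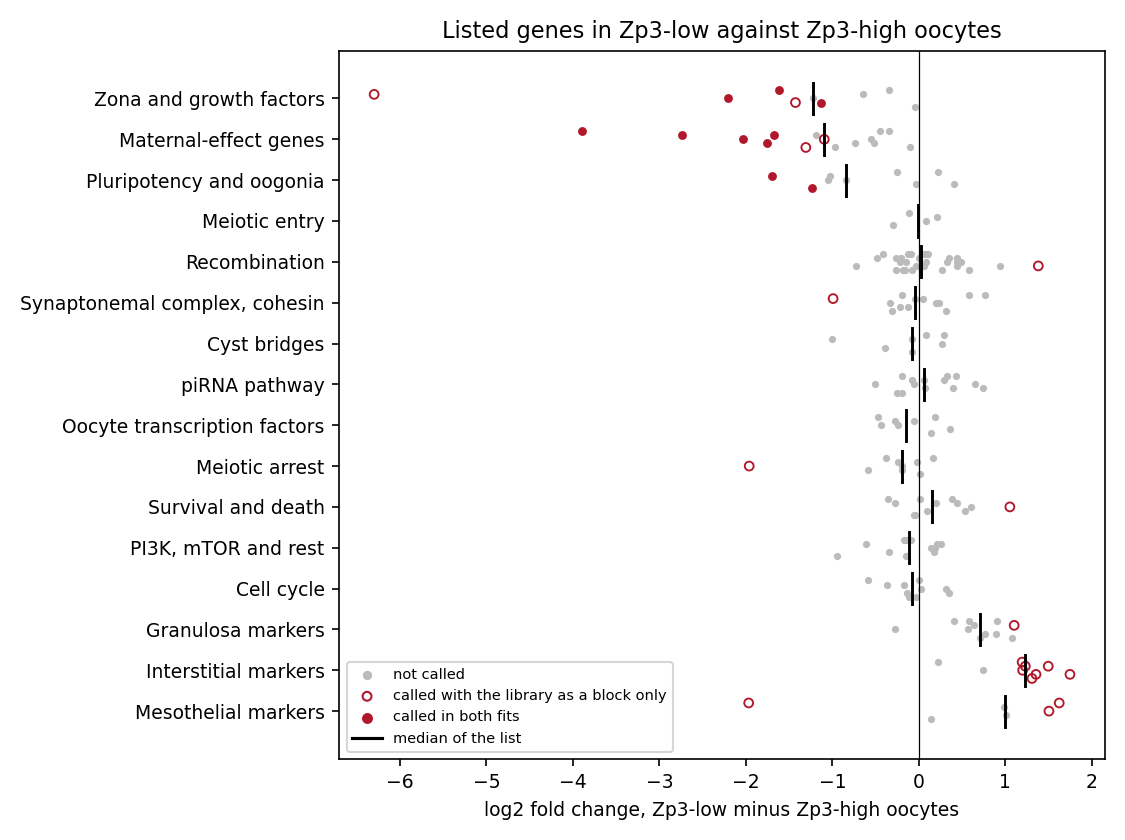
log2 fold change of Zp3-low minus Zp3-high oocytes for the tested genes of 16 lists, 1 point per gene, with the list's median as a black bar. Filled red points were called in both fits and open red points only with the library as a block. Zona, growth factor and maternal-effect genes lie left of 0, meiotic lists lie around 0, and granulosa, interstitial and mesothelial markers lie mostly to the right. The leftmost point is Oosp1, whose place depends on the fit's prior count, since it had 1 and 0 UMIs in the members.

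To look for an early meiotic program in single cells, every RNA-rich cell was thinned at random to 10000 UMIs, and cells with at least 3 of 18 early meiotic genes were counted. In the summed UMIs, 15 of the 18 were tested, 10 with a positive and 5 with a negative log2 fold change and a median of 0.21. Of these, 1 was called higher with no block and 2 with the block (Tex101 and Meiob), beside 0.0224% and 1.45% of all genes. The list was chosen with earlier results of these data known, so these calls are a description. Among members, 30 of 62 cells in replicate 1 had at least 3 of the 18 genes (48.4%, interval 35.5% to 61.4%). In replicate 2 it was 80 of 237 (33.8%, 27.8% to 40.2%). Among Zp3-high oocytes it was 39.2% (65 of 166, 31.7% to 47%) and 29.4% (70 of 238, 23.7% to 35.6%). The share was higher in members in each library, by less than the intervals of the shares, and its direction depended on the number of genes asked for. With at least 2 genes it was lower in members (72.6% and 70.04% against 81.3% and 73.9%), and with at least 5 it was higher (6.45% and 2.53% against 0.602% and 0.84%, from 4 and 6 members and 1 and 2 Zp3-high oocytes). In RNA-rich cells outside the oocyte rule the shares were 0.0791% (1 of 1265) and 0.122% (1 of 821). With all UMIs in place the shares were 90.3% and 86.9% in members and 98.8% and 92.9% in the deeper Zp3-high oocytes, the opposite order. Genes of the score went both ways. Mnd1 was found in 87.1% and 81% of thinned members and in 91% and 89.5% of Zp3-high oocytes, Rec114, a break factor, in 53.2% and 59.9% against 59.6% and 63.9%, and Prdm9, which places the breaks, in 14.5% and 16% against 19.9% and 21%. All 3 were found in a smaller share of members. Mnd1 and Rec114 were found in most thinned oocytes of either group, so reaching 3 genes does not by itself show a program. Genes found in a larger share of thinned members were Hormad1 (37.1% and 12.7% against 24.7% and 5.46%), Meiob (16.1% and 9.7% against 7.23% and 3.36%) and Tex101 (4.84% and 4.22% against 0 and 0).

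**Figure D3:**
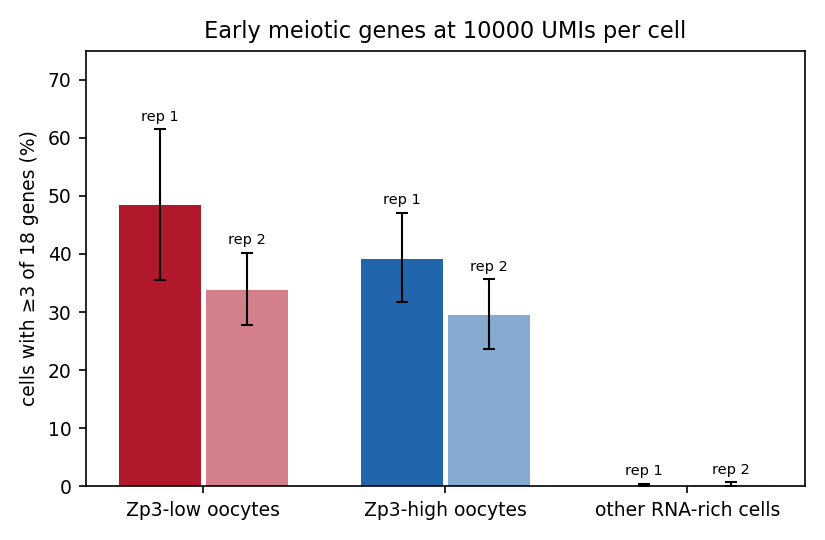
Percent of cells in which at least 3 of 18 early meiotic genes were found after thinning to 10000 UMIs, in members, Zp3-high oocytes and RNA-rich cells outside the oocyte rule, with a bar per library and exact 95% binomial intervals. Both oocyte groups stand between 29.4% and 48.4%, and the other cells below 1%.

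Tex101, a surface protein of germ cells held by a lipid anchor, was found in a few members. Its gene lies at chr7:24668007-24676675, and its UMIs numbered 19 in the members of replicate 1 and 86 in those of replicate 2, against 1 and 4 in Zp3-high oocytes. In CPM this was 5.57 and 7.31 against 0.0715 and 0.254 (log2 fold change 5.16, SE 0.583, adjusted p = 0.0434). Without likely doublets the log2 fold change was 5.17 and the adjusted p was 0.0594, short of a call. The ratio of CPM was 77.9 in replicate 1 (counting interval 12.4 to 3237) and 28.8 in replicate 2 (10.9 to 108). A Tex101 UMI was found in 10 members of replicate 1 and 16 of replicate 2, of which 4 and 11 had no Zp3 UMI. The RNA was uneven among them, since 5 cells held 73 of the 86 UMIs of replicate 2, all 5 without Zp3. These 26 members had median UMIs of 42564.5 and 38934, below those of the other members (60963 and 53117), and their oocyte marker shares (medians 0.599% and 0.537%) were near those of the others (0.553% and 0.632%). Thinned to 10000 UMIs, they had 0.8 and 0.375 Meiob UMIs per cell on average against 0.0962 and 0.0996 in members without Tex101, 4.4 and 5.62 of Sycp1 against 3.33 and 1.96, and 1.6 and 1.56 of Syce3 against 0.75 and 0.457. Zp1 was at 0 in both libraries, against 1.02 and 0.801. Gdf9 was at 0.9 and 0.938 against 1.83 and 2.57, and Ooep at 5.9 and 8.5 against 13 and 20. Not all such genes were lower in both libraries. Npm2 was at 0.8 and 0.0625 against 0.788 and 0.855, Zp2 at 2.6 and 1.62 against 2.83 and 4.93, and Dppa3 at 46.5 and 29.1 against 38.3 and 44.5. Figla was at 15.4 and 13.8 against 10.5 and 10.8. These averages were taken after Tex101 had been seen to lead the genes called higher, and they were not tested. Without all oocytes that had a Tex101 UMI, there were 2 genes called higher and 46 lower. This choice removed every Tex101 UMI, so the loss of its own call was fixed in advance.

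Germ cells below 10000 UMIs that met the other rules, 22 in replicate 1 and 274 in replicate 2, held Tex101 too, with 8 UMIs in each library (122 and 8.83 CPM), of which a single cell held 6 in replicate 2. Their median UMIs were 2303.5 and 2481, and 7 (31.8%) and 125 (45.6%) of them had no Zp3 UMI. At those depths a count of 0 does not place a cell on the Zp3 scale, so these cells were not tested against the members.

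BC049730, on the same chromosome, was the other named gene called higher. It lies at chr7:24709242-24714535, 32566 bases from Tex101, and was at 115 and 121 CPM in the members against 50.2 and 46.3 CPM (log2 fold change 1.25, SE 0.096, adjusted p = 0.024). Unlike Tex101 it was abundant in both groups. The third gene called higher, Gm15389, has only a model name.

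Along the Zp3 share, oocytes differed by degrees. In oocytes thinned to 10000 UMIs, Zp1 went from 0.444 and 0.197 UMIs per cell below 0.005% Zp3 to 1.53 and 1.72 between 0.035% and 0.05%, and to 4.25 and 4.75 in oocytes at or above 0.1%. Npm2 went from 0.111 and 0.197 through 1.53 and 2 to 5.64 and 7.39, and Khdc3 from 0.111 and 0.182 through 0.737 and 0.828 to 3.3 and 3.27. Sycp1 went from 4.89 and 2.65 through 2.63 and 1.66 to 2.01 and 1.03. Meiob went from 0.444 and 0.273 through 0.105 and 0.0345 to 0.0962 and 0.0367. Hormad1 went from 0.444 and 0.227 through 0.421 and 0.138 to 0.279 and 0.0183, and in replicate 1 it was highest, at 0.667, between 0.02% and 0.035%. Tex101 was at 0.333 and 0.379 in the bin of least Zp3 and at 0 in every other bin but 1, which had 0.105 in replicate 1. Figla, one of the chosen markers, varied little, between 9.86 and 12.7. The lowest bin held 9 oocytes of replicate 1 and 66 of replicate 2, and their median UMIs were 40315 and 45565.5, against 94240 and 74295 in the highest bin. Zp3 defined the bins, so these values are a description.

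**Figure D4:**
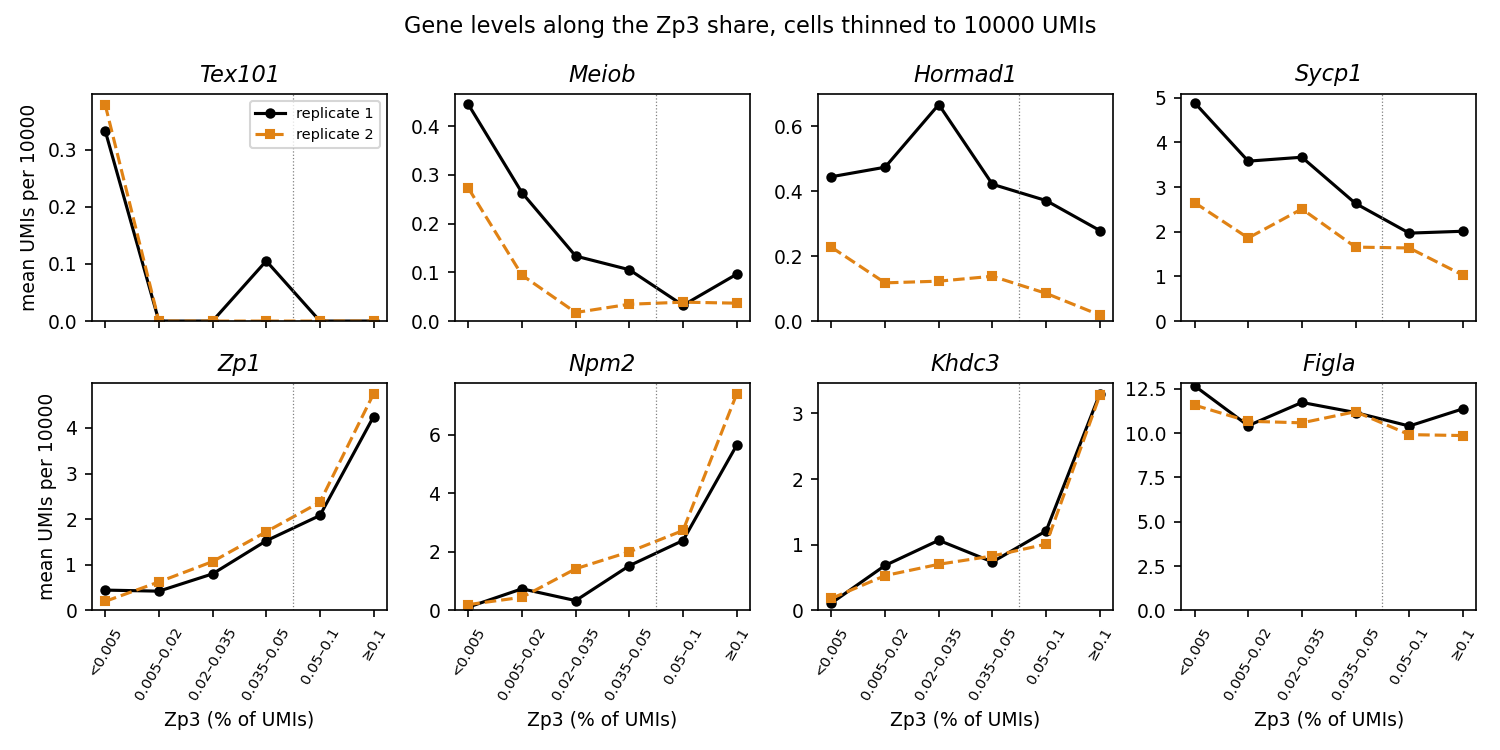
Mean UMIs per cell of 8 genes in RNA-rich oocytes thinned to 10000 UMIs, over 6 bins of the Zp3 share, with replicate 1 in black and replicate 2 in orange. The dotted line marks the threshold of 0.05%. Zp1, Npm2 and Khdc3 are highest in the last bin of both libraries, Sycp1 and Meiob in the first, Tex101 is found in the first bin and once more in replicate 1, and Figla is nearly level.

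Genes of the germline cyst did not set the members apart at this depth. Of 7 listed genes none was called in either fit, and the median log2 fold change was -0.08. Tex14, which holds the bridges between sister cells open, was at 35.2 and 31.4 CPM in the members against 31.8 and 35.9 CPM (log2 fold change -0.08, SE 0.134, adjusted p = 0.793), and in cells outside the oocyte rule it was at 137 and 57 CPM, so it did not mark germ cells here. Rbm44, a bridge protein that those cells lacked (0.191 and 0.137 CPM), was at 21.7 and 18.5 CPM against 16.7 and 15.1 CPM (log2 fold change 0.29, SE 0.15, adjusted p = 0.36). Cdh1 (E-cadherin), which germ cells use to adhere, was at 4.99 and 4.59 CPM against 10.2 and 8.37 CPM (log2 fold change -1.001, adjusted p = 0.119, and 0.0019 with the block). At 10000 UMIs per cell its log2 fold change was -0.23 (adjusted p = 0.874), with 0.0323 and 0.0717 UMIs per member against 0.0843 and 0.0588, so the libraries differed in direction.

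Other programs of the oocyte had medians near that of all genes. The 8 tested transcription factors had a median log2 fold change of -0.15 and none was called. Lhx8 was at 285 and 287 CPM against 293 and 283 CPM (log2 fold change -0.06, SE 0.073), and Nobox was at 451 and 479 CPM against 630 and 593 CPM (log2 fold change -0.44, adjusted p = 0.082, and 3.21e-07 with the block). Sohlh2 was at 77.4 and 66.1 CPM against 58.1 and 49.7 CPM (log2 fold change 0.36, adjusted p = 0.188, and 0.00176 with the block). Of 14 tested genes of the piRNA pathway, which silences transposons, none was called and the median was 0.06. At any fold with the block, 5 of the 14 had an adjusted p under 0.05 in the higher direction and 4 in the lower, beside 13% and 16.3% of all genes. Of 12 genes of the PI3K and mTOR pathway, whose drivers and brakes set whether a primordial follicle rests, none was called and the median, over members of opposed roles, was -0.12. Foxo3, a brake, was at 143 and 129 CPM against 117 and 115 CPM (log2 fold change 0.18, adjusted p = 0.319, and 0.0383 with the block), but its log2 fold change was 0.019 at 10000 UMIs per cell (adjusted p = 0.977). Mtor, a driver, was at 16.4 and 19.6 CPM against 38.3 and 30 CPM (log2 fold change -0.94, adjusted p = 0.0878, and 4.94e-05 with the block). Among 12 genes of survival and death the median was 0.15. Bbc3 (PUMA), which kills oocytes with broken DNA, was called higher with the block, beside 1.45% of all genes (9.68 and 16.1 CPM against 8.37 and 4.25 CPM, adjusted p = 0.00111, and 0.236 without). Its log2 fold change was 1.05 with no block and 0.52 with oocyte markers of at least 0.5%. It was 1.71 without replicate 1 and 0.19 without replicate 2, so replicate 2 carried most of it. Among 9 genes of meiotic arrest the median was -0.20. Cdc25b, the phosphatase that starts maturation, was called lower with the block, beside 3.9% of all genes (6.45 and 13.1 CPM against 39 and 40.9 CPM, adjusted p = 6.94e-09, and 0.0681 without). The 10 genes of the mitotic cycle had a median of -0.08 and none was called. Mki67, which dividing cells express, was at 14.7 and 19.3 CPM in the members and 19.1 and 18.9 CPM in Zp3-high oocytes, against 44.7 and 54.9 CPM in cells outside the oocyte rule.

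RNA of somatic cells moved with the groups. Members held 132 and 193 CPM of 11 granulosa markers in sum, against 44.4 and 159 CPM in Zp3-high oocytes and 2358 and 1670 CPM in RNA-rich cells outside the oocyte rule. The most abundant of them in the members was Gatm, an enzyme of creatine synthesis, at 44.9 and 58.5 CPM, and Foxl2, which defines granulosa cells, was at 14.4 and 26.7 CPM against 4.36 and 21.9 CPM. The 9 interstitial markers summed to 63.4 and 191 CPM against 34 and 71.7 CPM, with Dcn the most abundant in replicate 2 (61.9 CPM). With no block none of the somatic markers was called. With the block, which called 1.45% of all genes higher, 7 of the 9 interstitial markers were called higher, as were 1 of 11 granulosa, 2 of 6 tested mesothelial, 1 of 3 tested endothelial and 4 of 4 tested erythroid markers, and 1 mesothelial marker was called lower. The 7 mesothelial markers summed to 8.8 and 20.4 CPM against 7.08 and 9.57 CPM, the 7 endothelial markers to 9.38 and 10.3 CPM against 6.58 and 7.61 CPM, and the 7 immune markers to 1.47 and 1.95 CPM against 1.79 and 2.54 CPM, with Ptprc, which defines white blood cells, at 0 in both groups. Erythroid RNA was 508 and 25.1 CPM in the members against 6.51 and 20.1 CPM in Zp3-high oocytes, and 1 member of replicate 1 held 830 of its 846 Hbb-bs UMIs. Early response genes such as Fos, which dissociation can induce, were at 95.9 and 127 CPM (Fos) against 32.7 and 97.6 CPM, and at 2206 and 1925 CPM in the cells outside the rule. At least 4 markers of 1 somatic type were found in 8 members of replicate 1 (12.9%) and 48 of replicate 2 (20.3%), against 3 (1.81%) and 31 (13%) Zp3-high oocytes, all at 10000 UMIs. Those oocytes were chosen by the same markers, so the markers had to fall without them. The median log2 fold change was then 0.14 in place of 0.71 for granulosa and 0.20 in place of 1.23 for interstitial markers. Of lists that had not chosen the oocytes, it was -0.14 in place of 0.54 for early response and stress genes. For the zona list it was -1.10 in place of -1.23, and for the maternal-effect list -1.06 in place of -1.09. For meiotic entry, recombination and synaptonemal complex genes it was 0.113, 0.096 and 0.061 in place of -0.014, 0.025 and -0.041. The early meiotic list went the other way, to 0.194 from 0.209, as did all genes tested, to -0.014 from 0.002. The part of somatic RNA in the smaller differences was not tested.

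**Figure D5:**
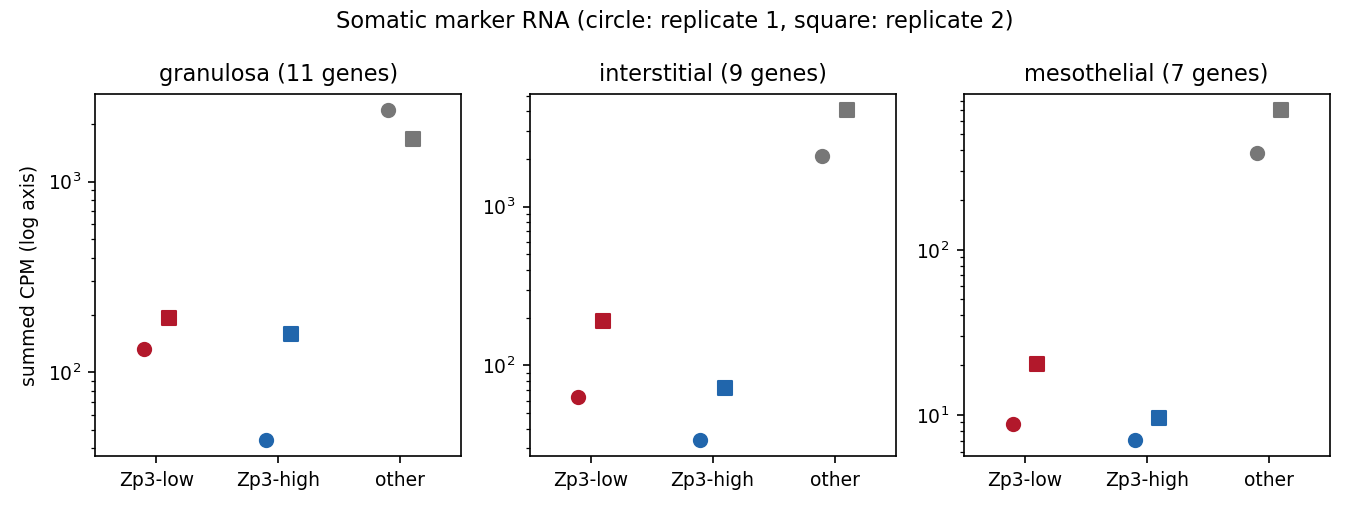
Summed CPM, on a log axis, of granulosa, interstitial and mesothelial markers in members, Zp3-high oocytes and RNA-rich cells outside the oocyte rule, with replicate 1 as a circle and replicate 2 as a square. In each library the members lie above the Zp3-high oocytes, and both lie far below the other cells.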

How the data were processed

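The deposited files hold UMI counts per gene and cell barcode, which the authors made with Cell Ranger 3.0.2 on build GRCm38 by the submitters' processing notes. The kit version differs between the labels and the methods and was not settled. The members and the gene lists were chosen with earlier results of these data known. UMIs were summed per library and group, filtered with filterByExpr, scaled by TMM and tested with edgeR 4.0.16 (R 4.3.3) in a model with no block, since n = 2 libraries, and a gene was called at a Benjamini-Hochberg adjusted p of 0.05 and a fold change of 2. The script was tested on simulated data. Both groups of a library share its pups, and their deviations from the group means correlated at 0.597, so the fit with the library as a block is given beside the results whose side of the threshold it changes. Likely doublets were marked with Scrublet (scanpy 1.11.5, expected share 0.05) and kept; its own thresholds were 0.2241 in replicate 1 and 0.5188 in replicate 2, and the lower was applied to both. An oocyte was called rich in somatic markers when 4 markers of 1 of 6 somatic lists were found at 10000 UMIs. Outside the lists, the 10 genes with the largest fold changes in each direction, at least 20 CPM in the higher group and a proper name were described. Alternatives were DESeq2 1.42.0, other scaling and filters, thinning, other thresholds, and leaving out doublets, somatic-rich oocytes and each library, and the one without Tex101-positive oocytes was chosen after seeing the data. Replicate spread is that between 2 libraries, which may be technical. Gene positions are GENCODE's for GRCm38, promoters are RefSeq's for GRCm38.p6, and other genome sequence was not used here.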

Additional observations from a re-analysis of the deposited data

Results flagged for a closer look

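A signal outside the comparisons lay in germ cells with little RNA, which met the marker rule but had fewer than 10000 UMIs. A single cell of replicate 2 held 11 Stra8 UMIs, more than the 3 that a count of 0 would allow, among 2959 UMIs and 1144 genes. It was the only 1 of the 296 germ cells with little RNA that had any Stra8, and it held 15 UMIs of Dazl, 13 of Sycp3, 6 of Tex101, 2 of Hormad1, 1 of Sycp1 and 0 of Zp3 and Dmc1. No Zp3-low RNA-rich oocyte had more than 1 Stra8 UMI.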

How the results depend on the processing

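The count of genes called higher was 3 with no block and became 194 with the library as a block, 22 with DESeq2, 37 with no low-count filter, 10 after thinning, 1 without likely doublets, 17 without oocytes rich in somatic markers, 86 among oocytes of 10000 to 30000 UMIs and 18 with Zp3 below 0.02%. It was 3 with RLE size factors and with markers of at least 0.5%. The 61 called lower became 523, 183, 304, 66, 23, 165, 21 and 187 in the same order, and 50 with RLE and 28 with markers of at least 0.5%. With 1 library left there is no test, and 105 to 298 genes were past a 2-fold difference upward and 290 to 576 downward. The UMI range left 12 and 37 members and 4 and 18 Zp3-high oocytes and 4207 genes to test, and the cause of the other changes was not tested. The block kept all 64 calls.

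The share of members among RNA-rich oocytes was 21.5% and 42.4% with markers of at least 0.5%, 12.3% and 31.8% with Zp3 below 0.02%, and 54.4% and 77.1% with Zp3 below 0.1%. The share of members with an early meiotic program was 90.3% and 86.9% at all UMIs, 72.6% and 70.04% at 2 genes, and 6.45% and 2.53% at 5 genes. In Zp3-high oocytes it was 98.8% and 92.9%, 81.3% and 73.9%, and 0.602% and 0.84%, so members were lower at all UMIs and at 2 genes and higher at 3 and at 5.

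Of 56 genes given with a test, direction turned in 8, none of them called with no block. At 10000 to 30000 UMIs the log2 fold change was 0.27 for Kit, -0.11 for Tex11 and -0.31 for Sohlh2. For Gja4 it was 0.024 without somatic-rich oocytes, 0.06 with markers of at least 0.5% and -0.055 to 0.062 with 1 library left out, and for Gm4969 it was 0.09, 0.041 and -0.213 to 0.118. For Lhx8 it was 0.011, 0.064 and -0.043 to 0.019, for Spo11 -0.066 with Zp3 below 0.02% and -0.04 to 0.226 with 1 library left out, and for Tex14 -0.187 to 0.141 with 1 library left out. Calls of Zar1, Oosp2, Astl, Gdf9, Nlrp14, Dppa5a and Tex101 passed to adjusted p of 0.0542 to 0.0594 without likely doublets, at log2 fold changes of -3.93 to -1.13 and of 5.17 for Tex101, and those of Miox, Npm2, Astl, Gdf9, Nlrp14 and Dppa5a to 0.0508 to 0.0664 at -3.37 to -1.03 with markers of at least 0.5%. At 10000 to 30000 UMIs, those of Glrx, BC049730, Astl and Khdc3 passed to 0.0522 to 0.209 at -1.93, 1.16, -1.86 and -1.58, and Slc23a3, Eif4e1b, Miox, Oosp2, Sult5a1, Gstt2 and Tex101 were under the count filter and could not be tested. There the log2 fold change also moved over 1.5 times for Tubg2 (-4.86), Pou5f1 (-2.19), Nobox (-0.99), Nlrp5 (-0.81), Ccnb1ip1 (0.30), Syce3 (1.47), Lhx8 (-0.39), Gja4 (-0.23) and Mageb4 (0.60). Thinning moved the log2 fold change over 1.5 times, with no change of call, to -0.21 for Gja4, -0.17 for Kit, 0.61 for Hormad1, -0.42 for Mnd1, 0.57 for Syce3, -0.23 for Cdh1, -0.13 for Tex14, -0.39 for Bmp15 and 0.019 for Foxo3. The depth of 62 members in replicate 1 limits what can be said of genes such as Stra8, and the medians of all genes lay between -0.037 and 0.014 in every fit.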

Other observations

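Genes of the X chromosome, looked at after the values were seen, stood among the genes called higher with the library as a block. That fit called 30 of 473 X-linked genes higher (6.34%) and 164 of 12932 autosomal genes (1.27%). Without oocytes rich in somatic markers and with no block, 17 of 13013 genes tested were called higher. Of these 17, 7 were among the 458 X-linked genes tested. The median log2 fold change of X-linked genes was 0.11, with 61.3% positive, and chromosome 3 had nearly the same values (0.11 and 61.5%), so that the median did not set the X chromosome apart. The X chromosome held 3.52% and 3.38% of X-linked and autosomal UMIs in the members, 3.38% and 3.29% in Zp3-high oocytes and 4.16% and 4.19% in RNA-rich cells outside the oocyte rule. Mageb4, of the MAGE family of germ line genes, was at 182 and 153 CPM in the members and at 89.5 and 77.1 CPM in Zp3-high oocytes (edgeR log2 fold change 0.96, adjusted p = 0.0505, and 1.11e-10 with the block). Tktl1, related to transketolase, was at 40.8 and 23.3 CPM against 15.5 and 6.78 CPM (adjusted p = 0.175, and 2.34e-08 with the block). Suv39h1, a histone H3 methyltransferase, was at 35.2 and 27.1 CPM against 12.9 and 11.5 CPM (adjusted p = 0.0554, and 1.48e-07 with the block). These are descriptions, and no test of the chromosome was run.

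Ly6k, whose protein is known to form a complex with TEX101, was likewise chosen after its values were seen. It was at 4.11 and 7.23 CPM in the members and at 0.787 and 0.887 CPM in Zp3-high oocytes (edgeR adjusted p = 0.0726, and 8.25e-06 with the block). A few cells carried these values, since 5 members held 11 of its 14 UMIs in replicate 1 and 5 held 81 of 85 in replicate 2. In replicate 2, 4 of the 5 members with at least 3 Tex101 UMIs also had at least 3 Ly6k UMIs, whereas in replicate 1 there were 2 members for each gene and 0 with both.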
